A study of Mus musculus with 97 samples.

Results

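In KO-Cdk5r1-MADM mice every cell lacked Cdk5r1, and 21 of the 97 RNA libraries of the series came from the cortex of these mice, 11 at embryonic day 16 (E16) and 10 on the day of birth (P0). The libraries were taken by their labelled genotype, MADM-11 GT,Cdk5r1/TG,Cdk5r1 together with Emx1-Cre, and by age, and all of them were used. Each held polyadenylated RNA of 2000 GFP+ cells sorted from a single cerebral cortex of a CD1 mouse, with both sexes at each age. MADM cassettes on chromosome 11 label single cells by an exchange between its copies, and Emx1-Cre sets this off in progenitors of the cortex. GFP therefore marks neurons and glia of the Emx1 lineage alike, and the deleted allele sat on both copies of the chromosome in labelled and unlabelled cells. Control-MADM libraries (MADM-11 GT/TG;Emx1-Cre), in which no cell is mutant, numbered 12 at E16 and 12 at P0. The question was how gene expression of the mutant cells changed between E16 and P0, and whether it changed differently from control-MADM.

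Cdk5r1 encodes p35, the main activator of the kinase CDK5, and Cdk5r2 encodes its relative p39. CDK5 phosphorylates cytoskeletal and adhesion proteins, and with Reelin signalling it is required for the ordered radial migration of cortical projection neurons. Around E16 radial glia and intermediate progenitors of the mouse cortex still produce upper layer neurons. Around birth neurogenesis ends, radial glia turn to making astrocytes and oligodendrocytes, and the neurons extend dendrites and form their first synapses.

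Counts are reads on genes, and levels are given in CPM, the counts scaled to the total on all genes of a library. The total on genes was between 1094174 and 6743597 at E16 (median 4573355) and between 4007541 and 5393155 at P0 (median 4622080). Between 16663 and 20991 genes were detected at E16 and between 19280 and 22558 at P0. The sorted cells carried the markers of their lineage. Tubb3, a neuronal tubulin, ranged from 3461 to 6262 CPM at E16 (median 4214) and from 2284 to 3866 CPM at P0 (median 3144), and the radial glial transcription factor Sox2 was found in every library.

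Libraries 8 to 11 of the 11 at E16 stood apart from the others of their group. Summed over a list of 10 erythroid markers, they held 3417 to 7845 CPM, while E16 libraries 1 to 7 held 14.3 to 673 CPM and the P0 libraries 13.9 to 290 CPM. The choroid plexus markers, led by Ttr, reached 8285 CPM in libraries 8 to 11, from a lowest value of 76.6 CPM, and at most 133 CPM in libraries 1 to 7 and 16.5 CPM at P0. The interneuron markers summed to between 1168 and 1417 CPM in libraries 8 to 11, between 105 and 273 CPM in libraries 1 to 7 and between 349 and 639 CPM at P0. For the mural cell markers these ranges were 324 to 438, 18.6 to 63.6 and 21.1 to 60.2 CPM, and microglial markers reached 893, 72.4 and 97.2 CPM. Interneurons, blood, choroid plexus and vessel cells do not belong to the Emx1 lineage of cortical projection neurons. In the first principal component (26.2% of the variance), libraries 9 to 11 lay at 61.02 to 92.7, library 8 at 29.7 and all other KO-Cdk5r1-MADM libraries at or below 19.9. The part of these markers in the results below was not tested, and the gene lists are therefore given with all 21 libraries and without E16 libraries 8 to 11, an alternative chosen after seeing the data. A gene described by the fold change of all libraries alone had the same call, higher, lower or not passing the test, without them.

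**Figure D1:**
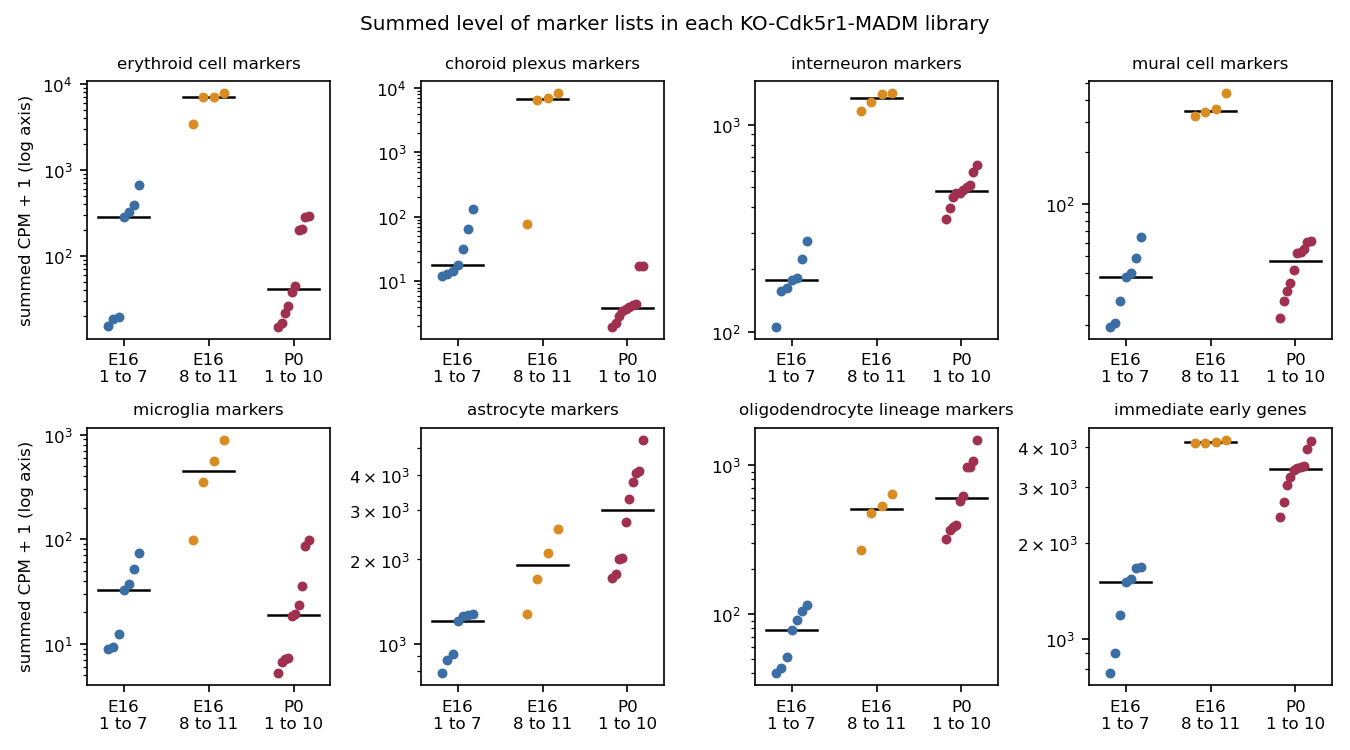
Summed level of marker lists (CPM + 1, log axis) in each KO-Cdk5r1-MADM library at E16 and P0; each point is a library, and E16 libraries 8 to 11 are drawn apart from libraries 1 to 7. For erythroid, mural cell and interneuron markers, libraries 8 to 11 lie above every other library of both ages.

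Cdk5r1 (ENSMUSG00000048895.13, chr11:80477023-80481184 of mm10) ranged from 44.4 to 68.2 CPM at E16 (median 53.04) and from 59.8 to 111 CPM at P0 (median 74.5). At each age every KO-Cdk5r1-MADM library lay below every control-MADM library, which ranged from 111 to 239.8 CPM at E16 and from 134 to 251 CPM at P0. The counts cover the whole gene, so reads outside the deleted part still add to the level in the mutant. Within KO-Cdk5r1-MADM these remaining reads rose between E16 and P0, with a log2 fold change (P0 over E16) of 0.45 (SE 0.10, adjusted p = 0.00419), and of 0.39 without libraries 8 to 11. All 10 P0 libraries were above the E16 median, although the ranges overlapped. Cdk5r2 ranged from 12.4 to 44.3 CPM at E16 (median 18.8) and from 17.5 to 49.5 CPM at P0 (median 31.5). The log2 fold change of Cdk5r2, 0.33 (SE 0.23, adjusted p = 0.338), did not pass the test with all libraries, and without libraries 8 to 11 it was 0.80.

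Of 13021 genes tested, 2460 changed between E16 and P0 at an adjusted p under 0.05 (18.9%), 934 of them higher at P0 (7.17%) and 1526 lower (11.7%). Adjusted p-values are from the edgeR quasi-likelihood test across all these genes with Benjamini-Hochberg adjustment. Without libraries 8 to 11, 3113 of 12870 genes changed (24.2%), 1651 higher (12.8%) and 1462 lower (11.4%). The share of changed genes that were lower thus went from 62.03% to 46.96%, and with upper quartile scaling of all libraries it was 50.4%. Both with and without these libraries, 1845 genes passed the test in the same direction (14.2%), 826 higher (6.34%) and 1019 lower (7.83%). A further gene, Col1a2, passed in opposite directions and was named after its value was seen. With all libraries, 676 genes (5.19%) also had a log2 fold change above 1 in size, 327 higher (2.51%) and 349 lower (2.68%). Over all tested genes the median was -0.02 on the log2 scale, and 0.02 without libraries 8 to 11. In 76 genes every P0 library lay above every E16 library (0.584%), and in 44 genes every P0 library lay below (0.338%).

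The genes that rose with the smallest adjusted p included RNA-binding, signalling and transport proteins. Cirbp, a cold-inducible RNA-binding protein, ranged from 312 to 511 CPM at E16 (median 430.1) and from 724 to 1182 CPM at P0 (median 899). No P0 library overlapped the E16 range, and the log2 fold change was 1.12 (SE 0.08, adjusted p = 7.54e-09), and 1.17 without libraries 8 to 11. Trim9, a neuronal ubiquitin ligase that acts in axon branching, ranged from 56.5 to 86.03 CPM at E16 (median 65.7) and from 138 to 331 CPM at P0 (median 188), again without overlap (log2 fold change 1.59 (SE 0.13, adjusted p = 1.78e-08); 1.64 without libraries 8 to 11). Slc6a11, the GABA transporter GAT-3 of astrocytes, ranged from 14.6 to 44.3 CPM at E16 (median 28.1) and from 72.8 to 203 CPM at P0 (median 124). Its log2 fold change was 2.26 (SE 0.20, adjusted p = 5.48e-08), and 2.56 without libraries 8 to 11. Dkk3, a secreted relative of the Wnt inhibitors, rose by 1.58 (SE 0.14, adjusted p = 5.48e-08) on the log2 scale, from a median of 42 to 120.3 CPM. Ptn, which encodes the secreted growth factor pleiotrophin, went from a median of 369 to 903 CPM with library 9 the highest at P0 (2069 CPM), a log2 fold change of 1.48 (SE 0.16, adjusted p = 2.09e-06). Irf1, a transcription factor of interferon responses, went from a median of 4.90 to 25.2 CPM (2.15 (SE 0.25, adjusted p = 3.2e-06)). The ranges of Dkk3, Ptn and Irf1 did not overlap between the ages.

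The genes that fell with the smallest adjusted p included factors of deep layer neurons and of young neurons. Nhlh1, a basic helix-loop-helix factor switched on as neurons leave the cell cycle, ranged from 11.6 to 83.98 CPM at E16 (median 56.4) and from 1.66 to 11.8 CPM at P0 (median 5.84). Only the lowest E16 library and the highest P0 library met, and the log2 fold change was -3.29 (SE 0.33, adjusted p = 7.11e-07), and -3.44 without libraries 8 to 11. Tpi1, a glycolytic enzyme, ranged from 316 to 451 CPM at E16 (median 375) and from 181 to 246 CPM at P0 (median 199), without overlap (log2 fold change -0.90 (SE 0.08, adjusted p = 3.96e-08); -0.85 without libraries 8 to 11). Fezf2, which specifies subcerebral projection neurons, ranged from 139.6 to 311 CPM at E16 (median 200.3) and from 31.2 to 103 CPM at P0 (median 64.2). Every P0 library was below every E16 library, and the log2 fold change was -1.70 (SE 0.21, adjusted p = 8.04e-06), and -1.87 without libraries 8 to 11. Bcl11b, which encodes CTIP2 and acts with Fezf2 in deep layer neurons, ranged from 126 to 297 CPM at E16 (median 207) and from 35.3 to 106 CPM at P0 (median 73.7), with a log2 fold change of -1.52 (SE 0.17, adjusted p = 1.98e-06) (-1.35 without libraries 8 to 11). Stk36, a kinase of the Hedgehog pathway and of motile cilia, fell from a median of 39.7 to 15.9 CPM (-1.37 (SE 0.16, adjusted p = 4.96e-06)). Acly, which makes the acetyl-CoA used for lipid synthesis, fell from a median of 283 to 169 CPM (-0.66 (SE 0.08, adjusted p = 9.54e-06)).

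**Figure D2:**
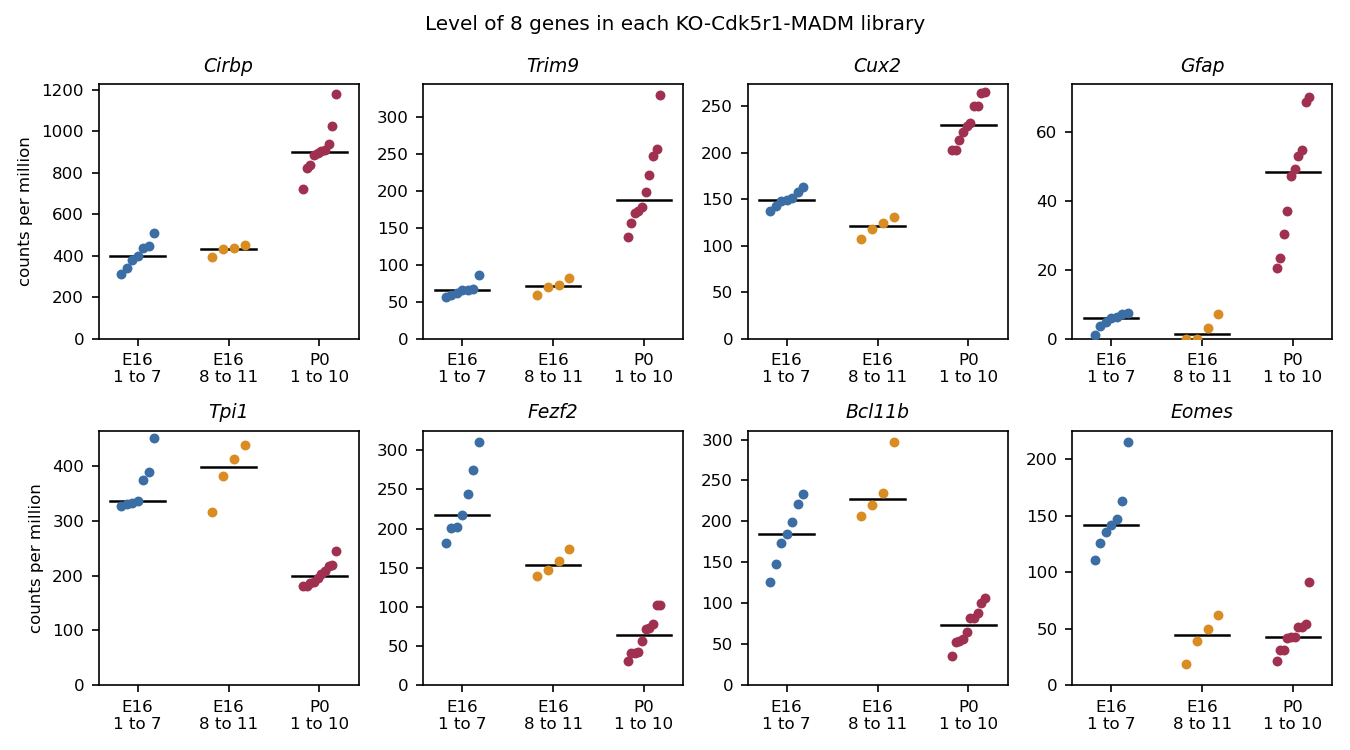
Level (CPM) of Cirbp, Trim9, Cux2, Gfap, Tpi1, Fezf2, Bcl11b and Eomes in each KO-Cdk5r1-MADM library at E16 and P0, with E16 libraries 8 to 11 drawn apart; the bar is the median of each column. In the panels of Cirbp, Trim9, Cux2 and Gfap all P0 libraries lie above all E16 libraries, and in those of Tpi1, Fezf2 and Bcl11b all lie below; for Eomes the groups overlap.

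Part of the genes of dividing cells fell, and none of those tested rose. Of 39 tested mitosis genes, 13 fell, 0 rose and 26 did not pass the test (median log2 fold change -0.51), and without libraries 8 to 11, 16 fell and 0 rose (median -0.61). Summed, the list held 590 to 1172.5 CPM in P0 libraries 1 to 6, all below the E16 range of 1444.5 to 2318 CPM. P0 libraries 7 to 10 held 1627 to 1921 CPM, within that range. This split of the P0 libraries was seen after the fact, and its cause was not tested. In the order of the sample labels, P0 libraries 1 to 6 stood before E16 libraries 9 to 11, and P0 libraries 7 to 10 after them. What this order stands for is not given. Cdc20, an activator of the anaphase-promoting complex, ranged from 89.8 to 179.8 CPM at E16 (median 129) and from 30.7 to 125 CPM at P0 (median 50.6). Its ranges overlapped, and the log2 fold change was -1.12 (SE 0.20, adjusted p = 0.000568), and -1.10 without libraries 8 to 11. Ube2c, the ubiquitin-conjugating enzyme of the same complex, ranged from 139.7 to 248 CPM at E16 (median 197) and from 34.2 to 191 CPM at P0 (median 89.2) (log2 fold change -0.94 (SE 0.22, adjusted p = 0.00496); -0.97 without libraries 8 to 11). Bub1b, which encodes the spindle checkpoint protein BUBR1, ranged from 25.9 to 48.7 CPM at E16 (median 33.3) and from 12.2 to 35.8 CPM at P0 (median 19.4) (log2 fold change -0.77 (SE 0.20, adjusted p = 0.00876); -0.75 without libraries 8 to 11). Mki67 and Top2a, much used markers of proliferation, did not pass the test, with log2 fold changes of -0.30 (SE 0.53, adjusted p = 0.747) and -0.23 (SE 0.27, adjusted p = 0.61). Of 40 DNA replication genes, 7 fell and 0 rose (median -0.20), and 6 fell and 0 rose without libraries 8 to 11 (median -0.25). The share that fell was 17.5%, against 11.7% of all genes, and 15% against 11.4% without libraries 8 to 11. Summed, this list held 1316 to 1726 CPM in P0 libraries 1 to 6. P0 libraries 7 to 10 held 1904 to 2468 CPM, against 1808.5 to 2420 CPM at E16. Rfc2, a subunit of the clamp loader, fell by 0.47 (SE 0.10, adjusted p = 0.00179), Mcm5 of the replicative helicase fell by 0.66 (SE 0.16, adjusted p = 0.00588) and Cdc45, its loading partner, fell by 0.83 (SE 0.21, adjusted p = 0.00815) on the log2 scale. Incenp, of the chromosomal passenger complex, fell by 0.67 (SE 0.16, adjusted p = 0.00553) and the spindle assembly factor Tpx2 fell by 0.72 (SE 0.19, adjusted p = 0.00789).

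The promoters of 3 mitosis genes are shown, taken in order of adjusted p from the changed list members with a usable RefSeq promoter. G2 and M phase genes are known to carry a CHR element (TTTGAA) and CCAAT boxes near their start sites. The sequences are from RefSeq on GRCm38.p6, from 250 bases before to 50 bases after the start site, in the direction of the gene, and 33 of the 39 tested mitosis genes matched the table. Capitals mark TTTGAA and CCAAT on either strand (TTCAAA and ATTGG on the other), and in Ube2c a CCAAT and an ATTGG overlap.
Cdc20 (chr4:118437294-118437593, minus strand): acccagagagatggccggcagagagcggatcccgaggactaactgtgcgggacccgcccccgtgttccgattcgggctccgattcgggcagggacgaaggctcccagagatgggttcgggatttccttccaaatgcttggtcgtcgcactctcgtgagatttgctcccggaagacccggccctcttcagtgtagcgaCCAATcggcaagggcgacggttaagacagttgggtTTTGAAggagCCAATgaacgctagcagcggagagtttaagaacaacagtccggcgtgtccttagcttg
Ube2c (chr2:164769679-164769978, plus strand): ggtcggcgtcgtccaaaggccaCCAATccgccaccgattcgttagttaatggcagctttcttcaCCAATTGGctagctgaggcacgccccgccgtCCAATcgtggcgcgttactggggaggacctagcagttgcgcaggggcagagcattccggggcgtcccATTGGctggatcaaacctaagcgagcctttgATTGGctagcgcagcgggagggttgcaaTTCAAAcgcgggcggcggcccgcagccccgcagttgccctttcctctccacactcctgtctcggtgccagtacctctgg
Bub1b (chr2:118597961-118598260, plus strand): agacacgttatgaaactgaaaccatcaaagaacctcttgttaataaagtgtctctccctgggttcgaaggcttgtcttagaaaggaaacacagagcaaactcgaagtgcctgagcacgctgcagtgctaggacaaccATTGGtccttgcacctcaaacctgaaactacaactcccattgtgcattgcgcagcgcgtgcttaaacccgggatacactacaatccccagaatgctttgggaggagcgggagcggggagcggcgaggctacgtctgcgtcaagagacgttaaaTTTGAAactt
TTTGAA stood at -18 to -13 from the start site in Cdc20, at -29 to -24 on the other strand in Ube2c and at 40 to 45 in Bub1b. It occurred in 25 of the 33 mitosis genes (75.8%), in 17.9% of all 32851 promoters of the table and in 13.6% of the 9800 tested genes with a promoter there. CCAAT occurred in 26 of the 33 (78.8%), in 37.4% of all promoters and in 43.3% of the tested genes. These matches are a description of the sequence, not of binding.

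Most of the tested intermediate progenitor genes fell. Of 13 tested, 7 fell and 1 rose (median log2 fold change -0.61), and of 14 tested without libraries 8 to 11, 9 fell and 0 rose (median -1.02). Eomes, which encodes TBR2, the defining factor of these progenitors, ranged from 18.7 to 215 CPM at E16 (median 125) and from 21.3 to 90.96 CPM at P0 (median 42.6). E16 libraries 1 to 7 held 111 to 215 CPM, all above the P0 libraries, and the E16 values below these belonged to libraries 8 to 11. The log2 fold change of Eomes was -1.29 (SE 0.33, adjusted p = 0.00909), and -1.70 (SE 0.21, adjusted p = 6.95e-06) without libraries 8 to 11. Neurog2, a proneural factor of dividing progenitors, ranged from 58.2 to 374 CPM at E16 (median 268) and from 18.5 to 115 CPM at P0 (median 83.6) (log2 fold change -1.67 (SE 0.32, adjusted p = 0.00108); -2.01 without libraries 8 to 11). Neurog1, its close relative, fell from a median of 7.02 CPM to at most 0.965 CPM in any P0 library (-4.15 (SE 0.62, adjusted p = 7.1e-05)). Mfap4, a microfibril protein on the list, fell by 1.40 (SE 0.23, adjusted p = 0.000204) and Gadd45g, a growth arrest gene, fell by 1.21 (SE 0.17, adjusted p = 4.59e-05) on the log2 scale. In bulk RNA, fewer cells of a type and less RNA of these genes per cell cannot be told apart, here or in the results that follow.

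Radial glial genes moved in both directions. Of 25 tested, 6 rose and 1 fell (median log2 fold change -0.07), and 5 rose and 4 fell without libraries 8 to 11 (median 0.08). The share that changed was 28%, against 18.9% of all genes, and 36% against 24.2% without libraries 8 to 11. Vim, the intermediate filament vimentin, ranged from 588 to 903 CPM at E16 (median 717) and from 219 to 623 CPM at P0 (median 321), and fell with a log2 fold change of -1.11 (SE 0.14, adjusted p = 1.14e-05) (-1.19 without libraries 8 to 11). Those that rose included genes that astrocytes keep. Slc1a3, the glutamate transporter GLAST, ranged from 67.5 to 211 CPM at E16 (median 151) and from 218 to 732 CPM at P0 (median 415), without overlap, and its log2 fold change was 1.53 (SE 0.21, adjusted p = 5.02e-05), and 1.37 without libraries 8 to 11. Mfge8, a secreted glycoprotein, rose by 1.11 (SE 0.17, adjusted p = 0.000115) on the log2 scale, and the gene of the matrix protein tenascin C rose as well. Pax6 and Sox2, the transcription factors that maintain these cells, did not pass the test (log2 fold changes -0.16 (SE 0.17, adjusted p = 0.538) and -0.12 (SE 0.25, adjusted p = 0.78)). Among the P0 libraries the summed level of the list ran from 3367 to 11595 CPM, with library 9 the highest. P0 libraries 7 to 10 held at least 7030 CPM and P0 libraries 1 to 6 at most 5185 CPM.

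Most of the tested astrocyte genes rose. Of 15 tested, 11 rose, 0 fell and 4 did not pass the test (median log2 fold change 1.43), and 12 rose and 0 fell without libraries 8 to 11 (median 1.70). Aqp4, the water channel of astrocyte endfeet, ranged from 0 to 3.14 CPM at E16 (median 0.883) and from 8.11 to 28.5 CPM at P0 (median 12.1). Gfap, the astrocyte intermediate filament, ranged from 0 to 7.31 CPM at E16 (median 4.78) and from 20.4 to 70.1 CPM at P0 (median 48.2). In both genes every P0 library lay above every E16 library, and the log2 fold changes were 3.71 (SE 0.49, adjusted p = 1.83e-05) for Aqp4 and 3.34 (SE 0.42, adjusted p = 1.11e-05) for Gfap, against 3.50 and 3.03 without libraries 8 to 11. Sparcl1, which encodes the secreted synaptogenic protein hevin, ranged from 19.6 to 103 CPM at E16 (median 41.1) and from 148 to 400.3 CPM at P0 (median 174) (log2 fold change 2.08 (SE 0.24, adjusted p = 3.49e-06)), and Hepacam, an astrocyte adhesion molecule, ranged from 4.78 to 27.3 CPM at E16 (median 9.52) and from 28.7 to 141 CPM at P0 (median 62.97) (log2 fold change 2.39 (SE 0.33, adjusted p = 4.28e-05)). Aldh1l1, a folate enzyme used as an astrocyte marker, overlapped between the ages and rose by 1.42 (SE 0.26, adjusted p = 0.0007) on the log2 scale.

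Of 10 genes of the oligodendrocyte lineage, 4 rose and 0 fell with all libraries (median log2 fold change 1.06), and all 10 rose without libraries 8 to 11 (median 3.39). When the fit also took each library's reads outside genes into account, 0 of the 10 passed the test (median 0.53). Olig1, a transcription factor of this lineage, ranged from 6.15 to 324 CPM at E16 (median 38.8) and from 148 to 922 CPM at P0 (median 354). E16 libraries 1 to 7 held 6.15 to 45.5 CPM, below every P0 library, and the log2 fold change was 2.19 (SE 0.61, adjusted p = 0.0159) with all libraries and 4.14 (SE 0.50, adjusted p = 2.33e-05) without libraries 8 to 11. Olig2, its paralogue, which also acts in progenitors, ranged from 0.883 to 96.2 CPM at E16 (median 15.2) and from 47.7 to 211 CPM at P0 (median 95.8) (log2 fold change 1.93 (SE 0.49, adjusted p = 0.00848); 3.18 without libraries 8 to 11). Bcas1, a marker of oligodendrocytes that are beginning to myelinate, went from a median of 0.305 to 5.93 CPM (2.41 (SE 0.70, adjusted p = 0.0172); 3.77 without libraries 8 to 11). Mbp, a major myelin protein, rose by 0.52 (SE 0.16, adjusted p = 0.022), from a median of 15.4 to 22.97 CPM.

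Of 28 genes of migrating neurons, 7 fell and 2 rose (median log2 fold change -0.21), and 12 fell and 1 rose without libraries 8 to 11 (median -0.35). The share that changed was 32.1%, against 18.9% of all genes, and 46.4% against 24.2% without libraries 8 to 11. Nhlh2, the relative of Nhlh1, ranged from 8.55 to 24.1 CPM at E16 (median 13.7) and from 0 to 4.83 CPM at P0 (median 3.19), without overlap, and its log2 fold change was -2.36 (SE 0.42, adjusted p = 0.000482) (-2.12 without libraries 8 to 11). Tubb3 fell by 0.54 (SE 0.11, adjusted p = 0.00176) on the log2 scale (-0.34 without libraries 8 to 11), as did Ina, the neurofilament protein alpha-internexin (-1.24 (SE 0.22, adjusted p = 0.000395)). Dcx, the microtubule protein doublecortin of migrating neurons, ranged from 150.3 to 544 CPM at E16 (median 319) and from 176 to 362 CPM at P0 (median 295), and did not pass the test (0.01 (SE 0.21, adjusted p = 0.982)). The summed level of the list was 19736 to 24067 CPM at E16 and 15893 to 21944 CPM at P0.

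With all libraries, the upper layer genes that passed the test rose and most of the deep layer genes that passed fell. Of 15 upper layer genes, 7 rose and 0 fell (median log2 fold change 0.46), and 5 rose and 1 fell without libraries 8 to 11 (median 0.24). Cux2, a homeodomain factor of upper layer neurons, ranged from 107 to 162 CPM at E16 (median 143) and from 202 to 265 CPM at P0 (median 230.2), without overlap, with a log2 fold change of 0.72 (SE 0.08, adjusted p = 3.32e-06) (0.63 without libraries 8 to 11). Cux1, its paralogue, rose by 0.46 (SE 0.10, adjusted p = 0.0027), and Mef2c, an activity-dependent factor, by 1.12 (SE 0.23, adjusted p = 0.00198) on the log2 scale. Of 17 deep layer genes, 6 fell and 2 rose (median -0.42), and 6 fell and 3 rose without libraries 8 to 11 (median -0.03). Besides Fezf2 and Bcl11b, Crym, a thyroid hormone-binding protein of corticospinal neurons, fell by 1.66 (SE 0.42, adjusted p = 0.00806) on the log2 scale. Foxo1, a target of insulin signalling on the same list, rose by 0.97 (SE 0.24, adjusted p = 0.00671) (1.46 without libraries 8 to 11). Of 7 subplate genes, the earliest-born cortical neurons, 5 fell and 0 rose (median -0.80), and 4 fell and 1 rose without libraries 8 to 11 (median -0.72). Lpar1, a lysophosphatidic acid receptor, went from a median of 26.8 to 11.1 CPM (-1.30 (SE 0.19, adjusted p = 5.02e-05)), and Nxph4, a secreted ligand of neurexins, from 125 to 60.1 CPM (-1.12 (SE 0.17, adjusted p = 0.000101)). Ccn2, a matricellular protein that marks subplate cells, fell by 1.38 (SE 0.30, adjusted p = 0.00258) on the log2 scale. Nr4a2, a nuclear receptor of subplate cells, fell with all libraries (-0.80 (SE 0.27, adjusted p = 0.0409)) and did not pass the test without libraries 8 to 11 (-0.48 (SE 0.29, adjusted p = 0.254)).

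Synaptic genes were counted separately for both sides of the synapse, and the counts depended on libraries 8 to 11. Of 57 genes of glutamate receptors and the postsynaptic density, 12 rose and 4 fell (median log2 fold change 0.15), and 21 rose and 4 fell without these libraries (median 0.40). The list changed in 28.1% of its genes, against 18.9% of all genes, and without these libraries in 43.9%, against 24.2%. Summed, it held 3267.5 to 4240 CPM in P0 libraries 1 to 6. P0 libraries 7 to 10 held 2768 to 3107 CPM, against 2610 to 3801 CPM at E16. In a fit of all libraries that also allowed for each library's reads outside genes, 2 of the 57 rose and 0 fell (median 0.11). This was a smaller share than among all genes, of which 1044 of 13021 changed in that fit. Grin1, the obligatory NMDA receptor subunit, ranged from 20.3 to 60.3 CPM at E16 (median 33.3) and from 50.6 to 92.6 CPM at P0 (median 62.8) (log2 fold change 0.88 (SE 0.18, adjusted p = 0.00161); 1.32 without libraries 8 to 11). Grm3, a metabotropic glutamate receptor of astrocytes and neurons, ranged from 0 to 10.4 CPM at E16 (median 3.72) and from 19.5 to 45.5 CPM at P0 (median 24.9), without overlap, with a log2 fold change of 2.65 (SE 0.41, adjusted p = 0.000109). Grm5, another metabotropic receptor, rose by 0.99 (SE 0.22, adjusted p = 0.00255), while Dlgap4, a scaffold of the postsynaptic density, fell by 0.37 (SE 0.08, adjusted p = 0.00187) on the log2 scale. Of 54 synaptic vesicle genes, 8 rose and 2 fell (median 0.23), and 16 rose and 3 fell without libraries 8 to 11 (median 0.30). These are 18.5% of the list, close to the 18.9% of all genes, and 35.2% without libraries 8 to 11, against 24.2%. Summed, the list held 5998 to 6992 CPM in P0 libraries 1 to 6. P0 libraries 7 to 10 held 4715 to 5142 CPM, against 4721 to 5564 CPM at E16. Vamp2, the SNARE protein of synaptic vesicles, ranged from 223 to 479 CPM at E16 (median 335) and from 363 to 513 CPM at P0 (median 439) (log2 fold change 0.40 (SE 0.10, adjusted p = 0.00774); 0.58 without libraries 8 to 11). Syn2, which encodes synapsin 2, went the other way. Its level ranged from 68.9 to 134 CPM at E16 (median 80.3) and from 28.8 to 64.4 CPM at P0 (median 46.3), without overlap, and the log2 fold change was -0.89 (SE 0.14, adjusted p = 9e-05).

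Of 20 genes of GABA receptors and chloride transport, 5 rose and 0 fell (median log2 fold change 0.43), and 9 rose and 0 fell without libraries 8 to 11 (median 0.60). Gabra5, the receptor subunit alpha 5, ranged from 0 to 22.4 CPM at E16 (median 5.30) and from 11.3 to 57.3 CPM at P0 (median 36.1). Without libraries 8 to 11 the E16 levels were 1.83 to 5.36 CPM, below every P0 library, and the log2 fold change of Gabra5 went from 2.06 (SE 0.46, adjusted p = 0.00327) to 2.87. Gabrg3, the subunit gamma 3, rose by 1.99 (SE 0.55, adjusted p = 0.013) (3.41 without libraries 8 to 11). Slc12a5, the chloride exporter KCC2 that makes GABA inhibitory in mature neurons, ranged from 1.77 to 50.9 CPM at E16 (median 6.73) and from 2.83 to 19.7 CPM at P0 (median 9.45). The log2 fold change of Slc12a5 was -0.51 (SE 0.48, adjusted p = 0.493) with all libraries, and 0.92 (SE 0.33, adjusted p = 0.0445) without libraries 8 to 11, where E16 reached 8.73 CPM. Slc12a2, the chloride importer NKCC1, did not pass the test either way (0.13 (SE 0.16, adjusted p = 0.626); 0.21 without libraries 8 to 11). Of 55 voltage-gated ion channels, 7 rose and 2 fell (median 0.15), and of 53 tested without these libraries 16 rose and 2 fell (median 0.34). With all libraries 16.4% of the channels changed, below the 18.9% of all genes, and without libraries 8 to 11 33.96% did, against 24.2%. Summed, the channels held 1621.5 to 1890 CPM in P0 libraries 1 to 6. P0 libraries 7 to 10 held 1302 to 1431.5 CPM, against 1299.9 to 1704 CPM at E16. Kcnd2, the A-type potassium channel, ranged from 4.28 to 16.7 CPM at E16 (median 10.3) and from 17.5 to 29.4 CPM at P0 (median 22.7), without overlap (log2 fold change 1.11 (SE 0.21, adjusted p = 0.000646); 1.35 without libraries 8 to 11). Cacna1c, the calcium channel subunit of the L type, rose by 0.64 (SE 0.14, adjusted p = 0.00297), and Hcn3, a pacemaker channel, fell by 0.51 (SE 0.11, adjusted p = 0.00246).

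Of 15 immediate early genes, which are switched on within minutes by activity and by handling of tissue, 3 rose and 0 fell with all libraries (median log2 fold change 0.21), and 9 of 13 rose and 0 fell without libraries 8 to 11 (median 1.37). With all libraries 20% of the list changed, near the 18.9% of all genes, and 69.2% did without libraries 8 to 11, against 24.2%. The summed level of the list was 4111 to 4215 CPM in libraries 8 to 11, 776 to 1673 CPM in E16 libraries 1 to 7 and 2407 to 4163 CPM at P0. Egr1, a zinc finger transcription factor, ranged from 35.3 to 482 CPM at E16 (median 96.8) and from 393 to 1274 CPM at P0 (median 782) (log2 fold change 2.04 (SE 0.46, adjusted p = 0.00394); 3.53 without libraries 8 to 11). Egr2 of the same family rose by 1.99 (SE 0.54, adjusted p = 0.0116) and Ier2 by 0.74 (SE 0.19, adjusted p = 0.00789) on the log2 scale (3.73 and 1.19 without libraries 8 to 11). Fos, a subunit of AP-1, did not pass the test with all libraries (0.53 (SE 0.31, adjusted p = 0.254)), and its log2 fold change was 1.37 (SE 0.23, adjusted p = 0.000231) without libraries 8 to 11.

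Cell adhesion genes rose more often than they fell. Of 74, 20 rose and 4 fell (median log2 fold change 0.14), and of 70 tested without libraries 8 to 11, 22 rose and 7 fell (median 0.38). Lsamp, a membrane-anchored adhesion protein of the IgLON family, ranged from 18.3 to 57.2 CPM at E16 (median 31.8) and from 78 to 146 CPM at P0 (median 92.2), without overlap, and its log2 fold change was 1.61 (SE 0.18, adjusted p = 3.01e-06) (1.86 without libraries 8 to 11). Opcml of the same family ranged from 25.4 to 81.2 CPM at E16 (median 38.96) and from 61.9 to 159 CPM at P0 (median 119) (log2 fold change 1.34 (SE 0.21, adjusted p = 0.00014); 1.21 without libraries 8 to 11), and Cadm2, a synaptic adhesion molecule, rose by 0.94 (SE 0.15, adjusted p = 0.000145). Of 43 clustered protocadherins, which give neurons distinct surface identities, 4 rose and 0 fell (median 0.36), and 8 of 44 rose and 0 fell without libraries 8 to 11 (median 0.43). The share that changed with all libraries, 9.30%, was below the 18.9% of all genes. Without libraries 8 to 11 it was 18.2%, also below the 24.2% of all genes. Pcdhgc4 ranged from 9.71 to 39.7 CPM at E16 (median 18.4) and from 32.1 to 56.5 CPM at P0 (median 37.8) (log2 fold change 0.90 (SE 0.20, adjusted p = 0.00297); 1.33 without libraries 8 to 11). Clustered protocadherins share exons, so reads could not always be assigned to 1 member.

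The extracellular matrix list split. Of 73 genes, 18 fell and 12 rose with all libraries (median log2 fold change -0.05), while of 65 tested without libraries 8 to 11, 10 fell and 20 rose (median 0.27). Adamts2, a procollagen protease, ranged from 7.17 to 29.2 CPM at E16 (median 13.3) and from 44.8 to 106 CPM at P0 (median 62.3), without overlap, with a log2 fold change of 2.18 (SE 0.20, adjusted p = 1.06e-07) (2.31 without libraries 8 to 11). Timp3, a metalloproteinase inhibitor, rose by 1.11 (SE 0.19, adjusted p = 0.000339) (1.52 without libraries 8 to 11). Col2a1, a fibrillar collagen, ranged from 10.1 to 78.3 CPM at E16 (median 30.6) and from 3.32 to 19.2 CPM at P0 (median 9.13) (log2 fold change -1.93 (SE 0.29, adjusted p = 7.41e-05); -1.69 without libraries 8 to 11), and Ltbp1, which stores latent TGF-beta in the matrix, fell by 1.57 (SE 0.27, adjusted p = 0.000294). Of 64 axon guidance genes, 16 fell and 1 rose (median -0.09), and of 65 tested without libraries 8 to 11, 14 fell and 5 rose (median -0.06). The list changed in 26.6% of its genes, against 18.9% of all genes, and in 29.2% against 24.2% without libraries 8 to 11. The share that fell was 25%, against 11.7% of all genes, and 21.5% against 11.4% without these libraries. Nrp2, a semaphorin receptor, ranged from 35.4 to 77.5 CPM at E16 (median 49.4) and from 3.84 to 54.7 CPM at P0 (median 8.30), with library 6 the highest at P0, and its log2 fold change was -1.99 (SE 0.37, adjusted p = 0.000682) (-1.87 without libraries 8 to 11). Draxin, a secreted repellent of commissural axons, fell by 0.70 (SE 0.17, adjusted p = 0.00488) and Efnb2, the ligand ephrin-B2, fell by 0.65 (SE 0.15, adjusted p = 0.00367) on the log2 scale. Robo1 and Dcc, receptors for Slits and netrins, did not pass the test (0.53 (SE 0.21, adjusted p = 0.0731) and 0.29 (SE 0.26, adjusted p = 0.477)).

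With all libraries, genes of the CDK5 and Reelin pathway changed about as often as all genes, and without libraries 8 to 11 less often. Of 40, 3 rose and 4 fell (17.5% against 18.9% of all genes, median log2 fold change 0.07). Without libraries 8 to 11, 4 rose and 2 fell (15% against 24.2% of all genes, median 0.08). Apart from Cdk5r1 itself, those that rose with all libraries were Pik3r1, a regulatory subunit of PI3 kinase (0.66 (SE 0.18, adjusted p = 0.0138)), and Nefh, the heavy neurofilament (1.31 (SE 0.44, adjusted p = 0.0364)). Src, the founding member of the kinase family that phosphorylates DAB1, ranged from 83.9 to 233 CPM at E16 (median 121) and from 81.7 to 112 CPM at P0 (median 92.4) and fell (-0.60 (SE 0.15, adjusted p = 0.00698)), but did not pass the test without libraries 8 to 11 (-0.26 (SE 0.11, adjusted p = 0.0944)). Nefl, the light neurofilament, was likewise lost without them (-1.52 (SE 0.48, adjusted p = 0.0282) against -0.92 (SE 0.52, adjusted p = 0.213)). Nde1, a dynein regulator, fell by 0.57 (SE 0.20, adjusted p = 0.0431), and Limk1, a kinase that inactivates cofilin, fell by 0.59 (SE 0.15, adjusted p = 0.00761).

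Most genes of glycolysis fell. Of 16, 10 fell and 1 rose (median log2 fold change -0.60), and 9 fell and 2 rose without libraries 8 to 11 (median -0.48). Besides Tpi1, Pkm, the muscle-type pyruvate kinase made by most tissues, fell by 0.75 (SE 0.10, adjusted p = 1.87e-05). Pfkl, the liver-type phosphofructokinase, ranged from 153 to 354 CPM at E16 (median 262) and from 85.9 to 171 CPM at P0 (median 126) (log2 fold change -1.02 (SE 0.14, adjusted p = 1.87e-05); -0.93 without libraries 8 to 11). Ldha, a lactate dehydrogenase subunit, ranged from 388 to 665 CPM at E16 (median 485) and from 274 to 367 CPM at P0 (median 332), without overlap, and fell by 0.63 (SE 0.08, adjusted p = 1.96e-05). Hk2, the hexokinase of proliferating and hypoxic cells, went from a median of 24.4 to 10.8 CPM (-1.09 (SE 0.17, adjusted p = 0.000138)), whereas Hk1, the main hexokinase of neurons, rose by 0.27 (SE 0.09, adjusted p = 0.0447). Of 80 ribosomal protein genes, 34 fell and 1 rose (median -0.26), and 21 fell and 1 rose without libraries 8 to 11 (median -0.18). Rpl13a ranged from 103 to 172 CPM at E16 (median 128) and from 66.2 to 83.9 CPM at P0 (median 73.2), without overlap (log2 fold change -0.81 (SE 0.09, adjusted p = 1.43e-06)). Processed copies of ribosomal protein genes share sequence with them, so these counts are uncertain. Of 88 nuclear genes of the respiratory chain, 11 fell and 0 rose (median -0.11), and of 87 tested without libraries 8 to 11, 8 fell and 1 rose (median -0.04). The share that fell, 12.5%, was near the 11.7% of all genes, and 9.20% without libraries 8 to 11 was below the 11.4% of all genes.

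Of 24 genes of cholesterol synthesis, 2 rose and 3 fell (median log2 fold change 0.02), and 4 rose and 3 fell without libraries 8 to 11 (median 0.10). The share that changed, 20.8%, was near the 18.9% of all genes, and it was 29.2% against 24.2% without libraries 8 to 11. Insig1, which holds the sterol-sensing machinery in the endoplasmic reticulum, ranged from 54.8 to 79.2 CPM at E16 (median 66.4) and from 101 to 152 CPM at P0 (median 119.5), without overlap, and its log2 fold change was 0.84 (SE 0.09, adjusted p = 1.43e-06) (0.82 without libraries 8 to 11). Pmvk, a kinase of the mevalonate pathway, ranged from 88.5 to 193 CPM at E16 (median 109) and from 67.96 to 102 CPM at P0 (median 88.5) and fell by 0.49 (SE 0.12, adjusted p = 0.0047) (-0.28 without libraries 8 to 11). Dhcr7, which makes the last reduction to cholesterol, fell by 0.61 (SE 0.15, adjusted p = 0.00583). The promoters of Insig1 and Pmvk are shown, taken in order of adjusted p from the changed list members with a usable RefSeq promoter. Capitals mark CCAAT on either strand.
Insig1 (chr5:28071162-28071461, plus strand): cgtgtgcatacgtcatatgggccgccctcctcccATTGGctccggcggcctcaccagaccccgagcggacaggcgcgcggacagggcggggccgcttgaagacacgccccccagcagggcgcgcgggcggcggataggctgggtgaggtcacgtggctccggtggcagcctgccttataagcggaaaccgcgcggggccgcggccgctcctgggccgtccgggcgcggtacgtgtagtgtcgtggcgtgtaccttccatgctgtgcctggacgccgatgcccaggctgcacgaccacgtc
Pmvk (chr3:89454291-89454590, plus strand): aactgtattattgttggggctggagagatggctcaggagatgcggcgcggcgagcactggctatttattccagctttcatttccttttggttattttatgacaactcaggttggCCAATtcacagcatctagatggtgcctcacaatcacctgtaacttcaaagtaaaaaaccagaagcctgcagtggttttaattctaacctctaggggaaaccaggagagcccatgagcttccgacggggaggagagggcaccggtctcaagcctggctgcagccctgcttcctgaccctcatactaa
CCAAT occurred in 16 of the 17 cholesterol genes that matched the table (94.1%) and in 43.3% of the tested genes with a promoter there. The sterol regulatory element, searched as TCACNCCAC on both strands, was in 1 of the 17 (5.88%). It was in 1.39% of the tested genes with a promoter in the table and in 1.24% of all promoters. These letters were not in either window shown.

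Of 33 heterochronic and epigenetic regulators, 8 fell and 3 rose (median log2 fold change -0.18), and 9 fell and 4 rose without libraries 8 to 11 (median -0.21). The share that changed was 33.3%, against 18.9% of all genes, and 39.4% against 24.2% without libraries 8 to 11. Igf2bp1, an RNA-binding protein of fetal tissues, ranged from 35.96 to 94.7 CPM at E16 (median 56.5) and from 22.2 to 35.2 CPM at P0 (median 27.3), without overlap (log2 fold change -1.19 (SE 0.16, adjusted p = 2.23e-05); -1.25 without libraries 8 to 11). Igf2bp2, its relative, fell by 1.37 (SE 0.20, adjusted p = 5.04e-05), and Smarca4, the ATPase of the BAF chromatin remodelling complex, fell by 0.49 (SE 0.07, adjusted p = 7.05e-05). Of 14 targets of glucocorticoid and thyroid hormone, 3 rose and 2 fell (median -0.00), and 6 rose and 2 fell without libraries 8 to 11 (median 0.47). Klf9, a hormone-induced factor, ranged from 0.883 to 8.86 CPM at E16 (median 2.17) and from 7.41 to 22.7 CPM at P0 (median 18.7) (log2 fold change 2.39 (SE 0.36, adjusted p = 7.1e-05); 3.06 without libraries 8 to 11). Dio2, the deiodinase that makes active thyroid hormone, went from at most 1.79 CPM at E16 to at least 2.07 CPM at P0 (3.00 (SE 0.49, adjusted p = 0.00019)), and Nr3c1, the glucocorticoid receptor, rose by 1.54 (SE 0.26, adjusted p = 0.000294). Of 23 neuronal splicing factors, 2 rose and 2 fell (median 0.01), and 3 rose and 4 fell without libraries 8 to 11 (median -0.01), and 17.4% changed with all libraries against 18.9% of all genes. Rbfox1, a splicing regulator of maturing neurons, ranged from 14.7 to 115 CPM at E16 (median 54.2) and from 108 to 189 CPM at P0 (median 143) (log2 fold change 1.11 (SE 0.28, adjusted p = 0.00719); 0.81 without libraries 8 to 11). Qk, a glial splicing factor, rose by 1.32 (SE 0.25, adjusted p = 0.000842), and Elavl2, an RNA-binding protein of young neurons, fell by 0.65 (SE 0.21, adjusted p = 0.0345).

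Most tested markers of erythroid, microglial, vessel, meningeal and choroid plexus cells fell with all libraries, and interneuron markers moved both ways. Of 15 interneuron markers, 4 fell and 1 rose (median log2 fold change -0.997), while of 13 tested without libraries 8 to 11, 10 rose and 0 fell (median 1.40). Gad1, which makes GABA, ranged from 0.430 to 86.5 CPM at E16 (median 10.6) and from 7.87 to 20.3 CPM at P0 (median 12.2), and its log2 fold change went from -1.15 (SE 0.63, adjusted p = 0.223) to 1.38 (SE 0.40, adjusted p = 0.0141) without libraries 8 to 11. Lhx6, a factor of interneurons from the medial ganglionic eminence, reached 119 CPM at E16 and 12.2 CPM in libraries 1 to 7, and the log2 fold change of -3.29 (SE 0.78, adjusted p = 0.00572) became -0.43 (SE 0.45, adjusted p = 0.523). Npy, a neuropeptide, rose both ways (1.46 (SE 0.41, adjusted p = 0.0159) and 1.76 (SE 0.52, adjusted p = 0.0213)). Of 5 choroid plexus, 6 erythroid, 6 meningeal and 7 mural cell markers, 5 each fell with all libraries. Without libraries 8 to 11, 0 of 6 erythroid markers changed, the choroid plexus marker still tested (Ttr) fell, and of 3 meningeal and 3 mural markers 1 each rose, Col1a2 and Pdgfrb. Pdgfrb, a receptor of pericytes, had log2 fold changes of -0.58 (SE 0.49, adjusted p = 0.44) with all libraries and 1.12 (SE 0.34, adjusted p = 0.0208) without them. Of 6 endothelial markers, 5 fell, and 2 of 4 still fell without libraries 8 to 11. These were Cldn5, a tight junction protein (-5.29 (SE 1.11, adjusted p = 0.00266); -3.79 (SE 1.02, adjusted p = 0.0132) without them), and Slc2a1, the glucose transporter GLUT1 (-0.94 (SE 0.24, adjusted p = 0.00813); -0.48 (SE 0.15, adjusted p = 0.0247) without them). E16 library 5, one of the remaining 7, held 434.9 CPM of endothelial markers, against at most 102 CPM in the other 6 and at P0. Pdgfrb, Cldn5 and Slc2a1 were named after their values were seen. Ttr, the transthyretin of the choroid plexus, reached 8051 CPM at E16, 127 CPM in libraries 1 to 7 and 15.7 CPM at P0, and its log2 fold change was -8.82 (SE 1.74, adjusted p = 0.00182), and -3.15 (SE 0.76, adjusted p = 0.00637) without libraries 8 to 11. Col1a2, a fibrillar collagen of meninges and perivascular cells, went from a log2 fold change of -2.84 (SE 0.98, adjusted p = 0.0479) to 2.46 (SE 0.45, adjusted p = 0.000377). Of 11 microglial markers, 6 fell, and 0 of 6 changed without libraries 8 to 11.

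**Figure D3:**
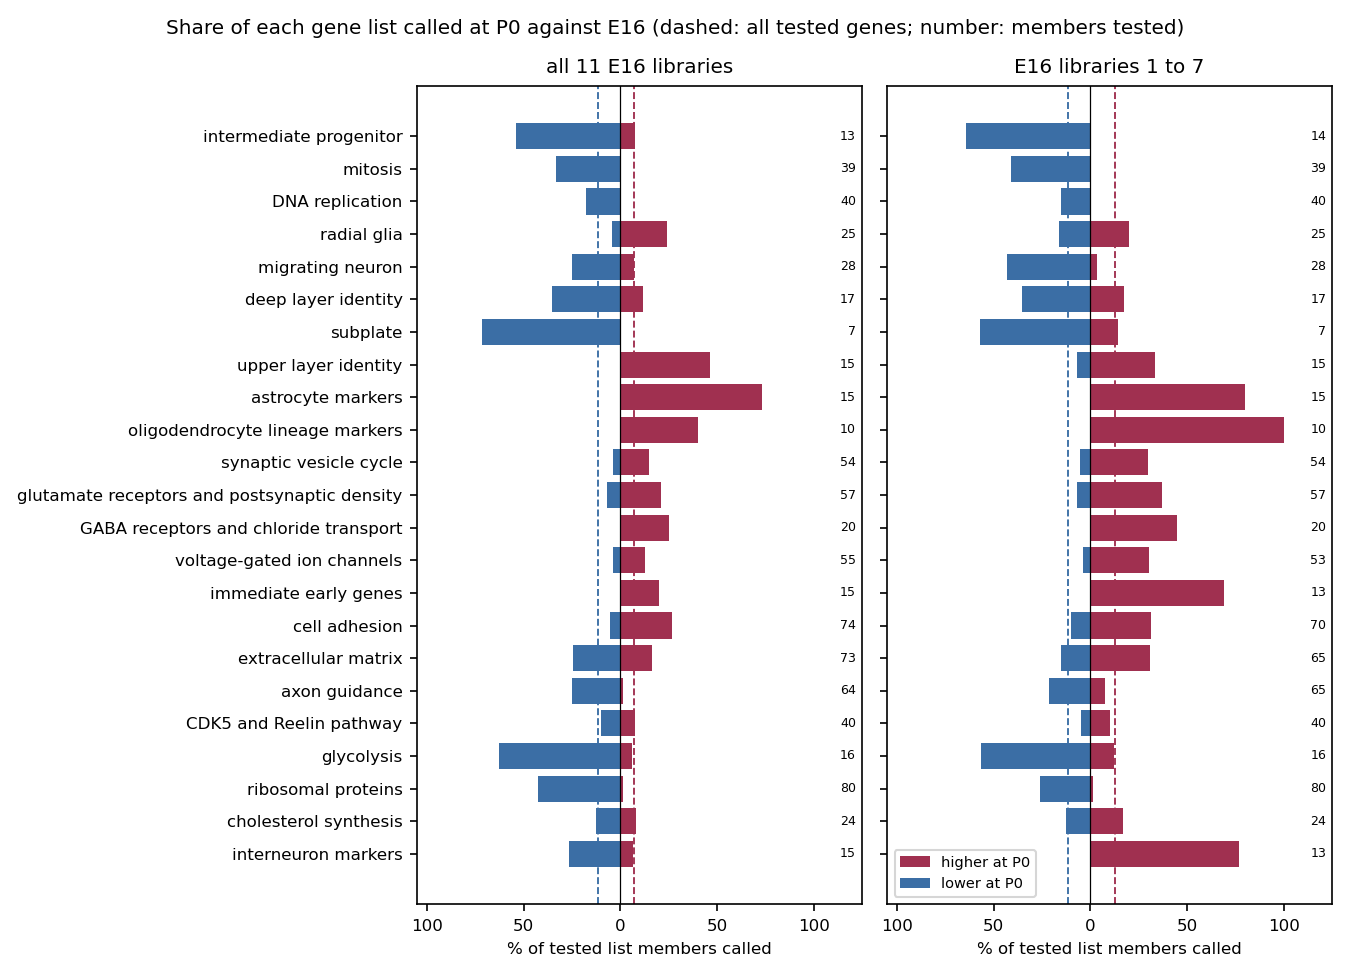
Share of the tested members of each list (percent) that rose (right) or fell (left) between E16 and P0 in KO-Cdk5r1-MADM, with all libraries and without E16 libraries 8 to 11; the number of tested members stands at the right. Astrocyte and oligodendrocyte lists lie on the right in both fits, intermediate progenitor, mitosis and glycolysis lists on the left, and the interneuron list changes sides.

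Genes also differed by the length of genome they span. With the tested genes put into 4 groups of equal size by span, 5.60% of the shortest (up to 8992 bases) rose and 15.3% fell, and 10.3% of the longest (over 58866 bases) rose and 6.33% fell. Without libraries 8 to 11 these shares were 10.7% and 13.2% for the shortest and 17.4% and 6.76% for the longest. The share of aligned reads outside genes was 14.2 to 19.2% at E16 and 16.6 to 24.4% at P0, and its part in these shares was not tested.

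Whether the change with age differed from that in control-MADM was tested as an interaction over 13053 genes. With all libraries 302 genes differed (2.31%), 68 with a more positive change in KO-Cdk5r1-MADM (0.521%) and 234 with a more negative one (1.79%). Without KO-Cdk5r1-MADM E16 libraries 8 to 11, 7 genes differed by the edgeR test (0.0539%), 1 with a more positive change (0.0077%) and 6 with a more negative one (0.0462%), 1539 having an unadjusted p under 0.05, and without control-MADM E16 library 12 as well, 0 did, with 1760 genes at an unadjusted p under 0.05. That control library was the highest of its group in erythroid (12960 CPM), interneuron (1402 CPM) and microglial (945 CPM) markers. With controls restricted to the mitochondrial class of the KO-Cdk5r1-MADM libraries (6 of 12 at each age, told by reads on the mitochondrial copy Gm28438 in place of mt-Nd3), 1 gene differed (0.00767%), and 1881 had an unadjusted p under 0.05. With all libraries, 7 of 11 oligodendrocyte lineage genes had a more negative change and 0 a more positive one (median difference -3.10). Of 15 astrocyte genes these counts were 1 and 0 (median -1.05). Without KO-Cdk5r1-MADM E16 libraries 8 to 11, 0 genes of either list differed (medians -1.15 and -0.72). These lists were picked after their values were seen.

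AA465934, a processed transcript (chr11:83291699-83294632), lies on the same chromosome as Cdk5r1. It ranged from 26.8 to 80.4 CPM at E16 (median 61.3) and from 10.2 to 91.96 CPM at P0 (median 62.8) in KO-Cdk5r1-MADM, and did not change with age there (-0.02 (SE 0.23, adjusted p = 0.977)). In control-MADM it went from 7.70 to 181 CPM at E16 to 2.62 to 12.4 CPM at P0, a log2 fold change of -2.96. The difference between the genotypes was 2.94 (SE 0.49, adjusted p = 0.00111), 2.83 (adjusted p = 0.0483) without libraries 8 to 11, and 3.24 with the restricted controls (adjusted p = 0.023). For Sox10, a factor of the oligodendrocyte lineage, the log2 fold change was 0.65 in KO-Cdk5r1-MADM and 6.66 in control-MADM, a difference of -6.03 (SE 0.98, adjusted p = 0.0011). Without libraries 8 to 11, in which Sox10 reached 69.8 CPM against at most 7.63 CPM in libraries 1 to 7, the difference was -3.12 (adjusted p = 0.155). Bcan, the brain proteoglycan brevican, rose in both genotypes, by 1.75 in KO-Cdk5r1-MADM and 3.56 in control-MADM, a difference of -1.82 (SE 0.35, adjusted p = 0.00568) and of -1.58 (adjusted p = 0.075) without libraries 8 to 11. Neurod1, a factor of young neurons, changed by -0.22 and -1.49, a difference of 1.28 (SE 0.29, adjusted p = 0.0193) that was 0.93 (adjusted p = 0.166) without libraries 8 to 11. Slc6a9, the glycine transporter GlyT1 of glia, changed by 0.66 and 2.87 (-2.22 (SE 0.37, adjusted p = 0.0011); -1.47 (adjusted p = 0.0627) without libraries 8 to 11), and Slc25a18, a mitochondrial glutamate carrier of astrocytes, by 2.28 and 4.70 (-2.43 (SE 0.45, adjusted p = 0.00431); -1.84 (adjusted p = 0.0627) without libraries 8 to 11). Besides AA465934, the genes that differed without libraries 8 to 11 were Hdhd5, Kcnip3, Me1, Mmp15, Rab31 and Sox13, all with a more negative change in KO-Cdk5r1-MADM, and Hdhd5, Kcnip3, Me1 and Rab31 were named after their values were seen. Mmp15, a membrane metalloproteinase, held from 76.5 to 171 CPM at P0 in KO-Cdk5r1-MADM and from 99.3 to 246 CPM in control-MADM, and the difference was -1.04 (SE 0.20, adjusted p = 0.00448) (-1.01 (adjusted p = 0.0483) without libraries 8 to 11).

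The changes of single genes can be set beside those in control-MADM, which share no library with them. In a fit of all 6 groups of both ages, 5057 of 13007 genes (38.9%) changed in control-MADM and 3205 in KO-Cdk5r1-MADM. The following genes were chosen by their change in the fit of the KO-Cdk5r1-MADM libraries alone, so their shares and medians do not describe all tested genes. Of 2412 such genes that were tested in both fits, 1640 (67.99%) changed in the same direction in control-MADM, 6 in the opposite direction and 766 did not pass the test there. Without libraries 8 to 11, 2259 of 3090 (73.1%) changed in the same direction, 4 in the opposite one and 827 did not pass. For genes that rose, the median log2 fold change was 0.79 in KO-Cdk5r1-MADM and 0.74 in control-MADM, and for genes that fell it was -0.54 and -0.43.

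**Figure D4:**
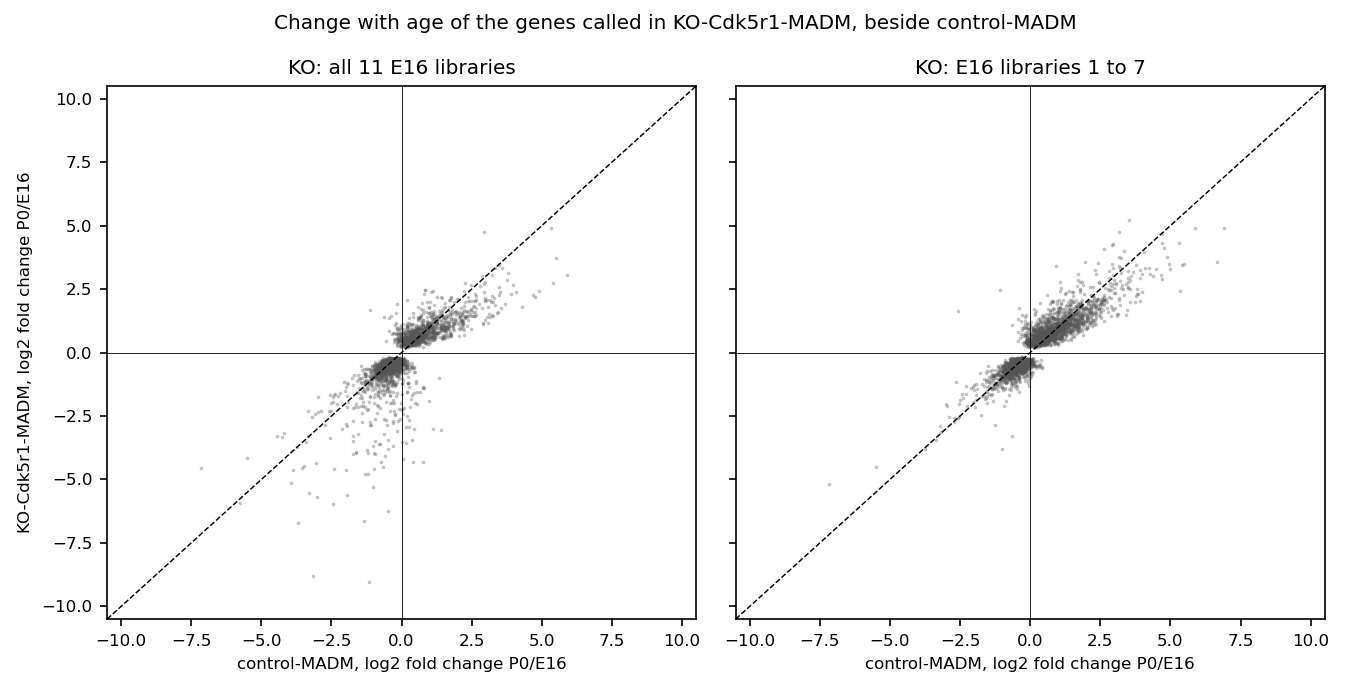
Log2 fold change (P0 over E16) of each gene that changed in KO-Cdk5r1-MADM and was tested in both fits (points), in control-MADM (horizontal) and KO-Cdk5r1-MADM (vertical), with all libraries and without KO-Cdk5r1-MADM E16 libraries 8 to 11; the line marks equal change. Of these genes, 92.7% had the same sign in control-MADM with all libraries and 95.5% without libraries 8 to 11.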

How the data were processed

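The authors deposited, for each library, raw counts of reads per gene from STAR, run on mm10 with only uniquely placed reads kept. They are not normalized. The unstranded column was used, because 49.4 to 49.9% of gene reads lay on the annotated strand. Reads outside genes, on several genes or unmapped entered neither library sizes nor tests. All 21 KO-Cdk5r1-MADM libraries had over 50% uniquely aligned reads (63.5 to 75.5%). The study also removed outlying libraries of its principal components, which the sources used here do not name. None was removed for that reason. Versions aside, GENCODE held 53274 of the 53379 gene identifiers.

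P0 was compared with E16 with edgeR 4.0.16 under R 4.3.3, using TMM scaling and the robust quasi-likelihood test for genes whose mean count exceeded 10, with Benjamini-Hochberg adjustment over all tested genes and a threshold of 0.05. The change in KO-Cdk5r1-MADM was set against that in control-MADM as an interaction in a fit of these 4 groups. An alternative was DESeq2 1.42.0, which the study used in an older version. Both tools were checked on simulated counts. Levels are CPM of all genes, with each library total multiplied by its TMM factor over all 6 groups, and are given as ranges over libraries. Reads carried no molecular identifiers, so they are not independent molecules. Each library came from a separate cortex. Litters and processing days are not given in the sources used here, so they and the ages cannot be told apart. Within groups, all library pairs differed beyond sampling noise (lowest chi-square per degree of freedom 4.07). Same-numbered libraries of the 2 ages were not paired (correlations of their deviations from -0.16 to 0.20, 3 of 10 best with their own number).

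The comparison and the 38 gene lists were chosen with earlier results of these data known. Lists are given by counts and medians, with no test. Genes were named by rule: Cdk5r1, the CDK5 and Reelin genes that changed, the 12 protein-coding genes of smallest adjusted p that rose and the 12 that fell, up to 4 changed members and the first 2 members of each list, and the 10 smallest adjusted p in each direction of the interaction. Of these, those described are named. Promoters were taken from RefSeq on GRCm38.p6. Protein sequences were not used here. The alternatives were RLE and upper quartile normalization, no count minimum, a log2 fold change above 1, all 6 groups in the fit, thinned counts, sex, genes detected or reads outside genes as a covariate, the replicate number as a block, controls of 1 mitochondrial class and leaving out each library in turn. Leaving out E16 libraries 8 to 11, 9 to 11 or control library 12, and genes detected as a covariate, were added after seeing the data.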

Additional observations from a re-analysis of the deposited data

Results flagged for a closer look

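Of 172 levels of named genes and lists examined over the 10 P0 libraries, 11 had a library far from the others by Dixon's criterion (6.4%), and chance gives about 1 in 20. Library 9 was the lowest for Nxph4 (22.4 CPM) and the highest for Bcas1 (17.2 CPM), Ptn (2069 CPM), Sparcl1 (400.3 CPM), the radial glial list (11595 CPM) and the mitochondrially encoded genes (13731 CPM). Library 7 was the highest for Cdk5r1 (110.5 CPM) and Eomes (90.96 CPM) and the lowest for Efnb2 (68.2 CPM). Library 4 was the highest for Col2a1 (19.2 CPM) and library 6 for Nrp2 (54.7 CPM).

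The change with age differed between KO-Cdk5r1-MADM and control-MADM, by the edgeR interaction test with all libraries, in 20 of 130 named genes. Over all genes 302 of 13053 differed (2.31%). Some genes were named for a small adjusted p in this same test, so the count of 20 does not measure an excess. The difference on the log2 scale was positive for AA465934 (2.94), Npy (1.85), Neurod1 (1.28), Adamts2 (0.93), Igf2bp1 (0.75) and Cdk5r1 (0.60). It was negative for Sox10 (-6.03), Olig1 (-2.60), Slc25a18 (-2.43), Pdgfrb (-2.40), Sox13 (-2.33), Slc6a9 (-2.22), Bcan (-1.82), Timp3 (-1.10), Mmp15 (-1.04), Me1 (-0.97), Mfge8 (-0.92), Dhcr7 (-0.82), Src (-0.79) and Rab31 (-0.60). Without KO-Cdk5r1-MADM E16 libraries 8 to 11, AA465934, Mmp15, Me1, Rab31 and Sox13 of these still passed the test.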

How the results depend on the processing

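Against 2460 genes that changed between E16 and P0 in KO-Cdk5r1-MADM (934 higher, 1526 lower), a log2 fold change above 1 left 676 (327 and 349). Thinned counts gave 1615 (870 lower), genes detected as a covariate 944 (399 and 545) and the share of reads not on genes as a covariate 1044 (436 and 608). With all 6 groups in the fit 1532 rose, and without E16 libraries 8 to 11 1651 rose. Leaving out each library in turn gave 2079 to 2584 genes, 776 to 1102 higher and 1269 to 1565 lower. With the replicate number as a block 1858 changed, 950 of them lower, but the numbers did not pair the libraries. Col1a2 changed sign without libraries 8 to 11 (2.46) and in the block fit (0.041), Gad1 (1.38), Pdgfrb (1.12) and Slc12a5 (0.92) without libraries 8 to 11. Of 129 named genes, 36 kept their direction but no longer passed the threshold with reads outside genes as a covariate, and 31 with genes detected as one. Cdk5r1 passed the test under each alternative run.

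For the difference from control-MADM (302 genes, 68 positive and 234 negative), DESeq2 gave 641 (183 and 458), all 6 groups 714 (290 and 424), a log2 difference above 1 172 (19 and 153), thinned counts 104 (24 and 80), genes detected as a covariate 127 (36 and 91), no count minimum 188 (43 and 145) and reads outside genes as a covariate 404 (124 and 280). Without E16 libraries 8 to 11 there were 7 (1 and 6), without 9 to 11 8 (1 and 7), without 8 to 11 and control library 12 0 (0 and 0; 1760 at an unadjusted p under 0.05), and with controls of 1 mitochondrial class 1 (1 and 0). Leaving out each library in turn gave 100 to 846 genes, 24 to 308 positive and 72 to 584 negative, the lowest without control-MADM P0 library 9 and the highest without control-MADM E16 library 12. The cause was not tested.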
